A study of Homo sapiens with 2 samples.

Results

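The cytoskeletal motors, tubulins and actin regulators of HepG2 cells were described after knockdown of the noncoding transcript TUC338. Members were taken by gene symbol, as every gene whose only symbol in the probe annotation starts with the prefix of a kinesin (KIF), myosin (MYO with a digit, MYH, MYL), dynein or dynactin (DYNC, DNAH, DCTN), tubulin (TUBA, TUBB, TUBG), actin regulator (ACTN, ACTR, ARPC, CAPZ), septin (SEPT), keratin (KRT with a digit) or tropomyosin (TPM). This gave 40 of the 2795 genes of the table, with 972 probe sets. They comprise 10 kinesins, 9 unconventional myosins, 4 genes of myosin II chains and their kinase, 4 dynein and dynactin subunits, 3 genes of tubulins and the gamma-tubulin complex, 4 genes of alpha-actinin, Arp2/3 and capping protein, 3 septins, 2 tropomyosins and 1 keratin. The prefix DNAH took no gene, and no member was a gene of another kind that shares a prefix by accident.

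HepG2 is an established human hepatoma line, and all cells of this study were of that line, grown on collagen. They received a locked nucleic acid (LNA), a chemically stabilised antisense oligonucleotide, directed at TUC338, or a control LNA. Each condition was measured on 1 whole-transcript exon array, so each difference is that of 1 array from another, without replicates. No test between the conditions was possible, and "lower" or "higher" describes these arrays only.

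A probe set covers about an exon, and a gene is given here as the mean over its probe sets of the log2 intensity on each array. The knockdown array was brighter as a whole, with a median intensity over all probe sets of 507 against 422, and 82.9% of the genes had the higher mean there. The difference of the median gene was 0.28 (log2), or 1.22-fold. Differences are therefore given relative to this median gene unless called deposited, as the gene mean ± SD over probe sets. That SD shows how far the exons of 1 gene agree between the same arrays, and pooled over all genes it was 0.28. Values of a gene at its brightest probe set are relative to the median of all genes at their brightest probe sets. Genes were counted at 1.5-fold, a log2 difference of 0.58, and, as a second and more lenient level, at a log2 difference of 0.32. Intensities of different genes depend on their probes as well as on the amount of transcript, so a split of genes by intensity, where one is made, sorts them by signal and not by abundance. Probe sets were nearly balanced around the median gene over the whole table, with 22180 of 42575 below it, and the counts of probe sets per gene are to be read against that.

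Probes of hepatocyte genes gave a strong signal on both arrays, in a table whose gene means ran from 4.57 to 13.30: albumin (ALB) had a log2 intensity of 12.55 in the knockdown and 12.35 in the control, and apolipoprotein B (APOB) had 12.66 and 12.41. Of the 15 hepatoma markers 5 were in the table. Beside ALB and APOB, APOA2 had 13.02 and 12.97, TF had 12.92 and 12.64, and FGG, the dimmest, had 10.53 and 9.98. Relative to the median gene the 5 ran from -0.24 (APOA2) to 0.27 (FGG). Of the 7 fibroblast and stellate markers 3 were in the table, and they did not share a direction. COL1A1 had 7.89 and 8.51 and lay at -0.90 relative to the median gene, while ACTA2 had 10.20 and 9.87 and lay at 0.045, and PDGFRB had 8.17 and 7.66 and lay at 0.22. No marker of endothelial cells, leukocytes, striated muscle, stratified epithelium or multiciliated cells was in the table. KRT8 and KRT18, which are among the 15 hepatoma markers, were not in it either. The table held 2795 genes and lacked most hepatoma markers, so absence from it does not show that a gene was not expressed. No probe set named TUC338 itself. Its host gene PCBP2 had 10.10 in the knockdown and 10.71 in the control.

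Cells move cargo and change shape on a pair of polymer systems. Microtubules, built from alpha- and beta-tubulin and nucleated by gamma-tubulin complexes, carry kinesins, most of which walk towards the plus end, and cytoplasmic dynein, which walks towards the minus end together with dynactin. Actin filaments are nucleated by the Arp2/3 complex, capped by capping protein, crosslinked by alpha-actinin, lined by tropomyosin and pulled by myosins. Septins and keratins form further filaments, and in hepatocytes these systems serve vesicle traffic to the bile canaliculus and the secretion of plasma proteins.

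The members lay slightly below the median gene as a set and spread to both sides. Their median was -0.071, against 0 for all genes by construction, and 24 of 40 (60.0%) were below the median gene, against 50% of all genes. At 1.5-fold, 4 members were lower and none higher, where 3.97% of all genes were lower and 2.25% were higher. The 4 were the alpha-tubulin TUBA1A, the kinesin heavy chain KIF5B, the beta-tubulin TUBB3 and the dynein heavy chain DYNC1H1. None reached 2-fold, where 0.358% of all genes were lower and 0.286% higher. At the lenient level of 0.32, 13 of 40 (32.5%) were lower and 2 of 40 (5%) were higher, against 14.6% and 11.6% of all genes. In deposited values, where the brighter knockdown array is not set off, 2 members were at least 1.5-fold lower (TUBA1A and KIF5B) and 2 at least 1.5-fold higher (KIF4A and CAPZA1), against 0.966% and 13% of all genes. Deposited means were lower on the knockdown array for 14 members (35%), against 17.1% of all genes.

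**Figure D1:**
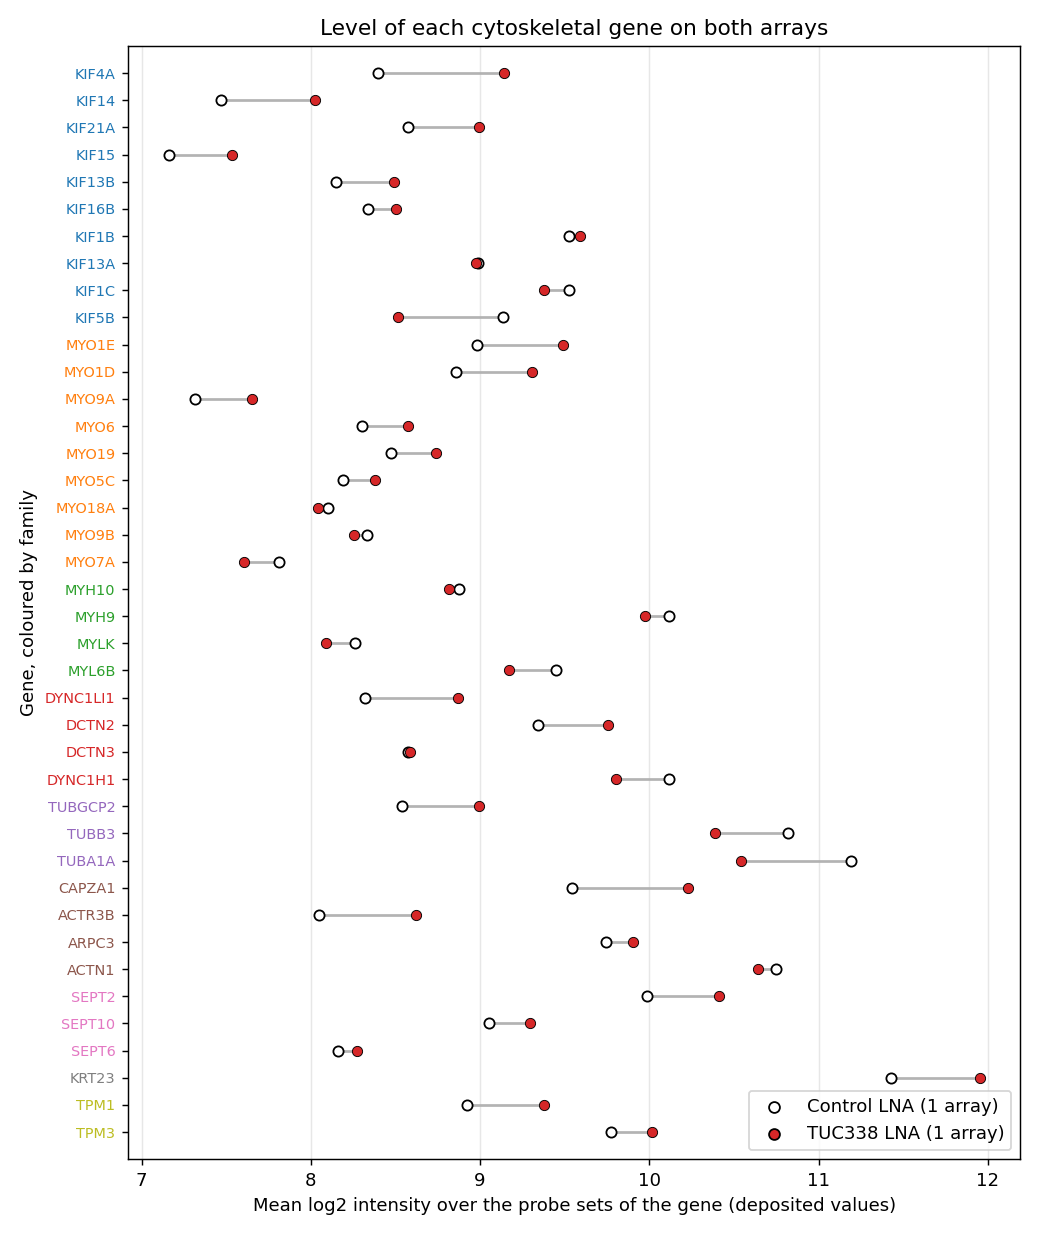
Mean log2 intensity over probe sets (x axis, deposited values) of each of the 40 genes (y axis, label colour by family) on the control array (open points) and the knockdown array (red points), 1 array each. The red point lies to the left of the open point for 14 genes, among them TUBA1A, KIF5B, TUBB3 and DYNC1H1, and to the right for the other 26.

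The tubulins, the building blocks of microtubules, held the lowest member. TUBA1A, an alpha-tubulin, had a mean of 10.54 after knockdown against 11.19 under the control LNA, a difference of -0.93 ± 0.72 over 5 probe sets, or 1.91-fold lower. Only 13 of the 2795 genes had a lower mean. Its probe sets fell into 2 sets. In 3 of them the knockdown values were 8.35, 8.93 and 10.31 against control values of 9.62, 10.10 and 11.38, differences of -1.55, -1.45 and -1.34. The other pair were the brightest, with 11.52 against 11.51 and 13.60 against 13.36, so their differences were -0.27 and -0.038 and their deposited values were not lower. The position of TUBA1A thus rests on 3 of its 5 exon-level measurements, and at its brightest probe set, set against the brightest probe sets of all genes, it was 0.047 higher. Alpha-tubulin genes have near-identical copies, and the assignment of these probe sets to TUBA1A rather than a copy is uncertain. A further 2 probe sets annotated to TUBA1A and TUBA1B together, left out of the gene mean, had differences of -0.55 and -0.54.

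TUBB3, a beta-tubulin best known from neurons, was more even. All 5 probe sets lay between -0.88 and -0.59, with a mean of -0.72 ± 0.11, and all were lower in deposited values too. The gene mean was 10.39 after knockdown against 10.82 in the control, or 60.9% of control relative to the median gene. One more probe set, shared with MC1R, lay at -0.12 and was not counted. TUBGCP2, a scaffold subunit of the gamma-tubulin complex that starts new microtubules, had 8.99 in the knockdown and 8.54 in the control and lay on the other side at 0.17 ± 0.33, with 15 of 19 probe sets above the median gene.

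Among the kinesins, the motors of anterograde transport and the motors of cell division differed in their medians, but their values overlapped. Relative to the median gene, the 7 transport kinesins had a median of -0.22, with 5 of 7 below it, and the 3 mitotic kinesins a median of 0.27, with 3 of 3 above it. The transport kinesin KIF21A, at 0.14, lay above the mitotic kinesin KIF15, at 0.091. These groups were formed by known role with the values in view, so the difference is a description. KIF5B, the widely expressed heavy chain of conventional kinesin, which carries vesicles and mitochondria, was lower at all 23 probe sets, in deposited values too. Its mean was 8.52 after knockdown against 9.14 in the control, or -0.90 ± 0.31 relative to the median gene and 53.5% of control, and 18 genes of the table were lower. Its single probe sets spread from -1.59 to -0.41. Of all genes with at least 4 probe sets, 2.19% had every probe set lower in deposited values.

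The kinesin-3 transporters followed at smaller sizes. KIF1C had 9.38 and 9.52 (knockdown and control, here and below) and lay at -0.43 ± 0.29, with 23 of 24 probe sets below. KIF13A, which moves endosomal and Golgi-derived vesicles, had 8.97 and 8.99, a difference of -0.30 ± 0.28 with 36 of 41 below. KIF1B, a carrier of mitochondria and vesicle precursors, had 9.59 and 9.53, or -0.22 ± 0.25 with 48 of 57 below. In deposited values only KIF1C was lower by more than a few hundredths, while KIF1B was 0.062 higher. The near relative KIF13B had 8.49 and 8.15 and a difference of 0.060 ± 0.35, which is 0.36 above KIF13A. KIF16B, an early-endosome motor, had 8.51 and 8.34 and lay at -0.11 ± 0.24, and KIF21A, which slows microtubule growth, had 8.995 and 8.575 and lay at 0.14 ± 0.21 with 26 of 34 above. Of these last 3, none reached the lenient level.

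KIF4A, a chromokinesin of the anaphase midzone, was the highest of the 40 members. All 7 of its probe sets lay above the median gene, from 0.12 to 1.17, with a mean of 0.46 ± 0.35 from 9.14 in the knockdown and 8.39 in the control, or 1.38-fold. Of all genes with at least 4 probe sets, 7.33% lay above the median gene throughout. A further 18 probe sets annotated to both KIF4A and its retrocopy KIF4B, not used in that mean, had a median of 0.52 and ran from 0.079 to 0.86. KIF14, which acts in cytokinesis, had 8.02 and 7.47 and lay at 0.27 ± 0.31, with 29 of 36 probe sets above. KIF15, a spindle motor, had 7.54 and 7.16 and lay at 0.091 ± 0.26 with 15 of 24 above, and turned to -0.52 at its brightest probe set. As gene means neither KIF14 nor KIF15 reached the lenient level. At its brightest probe set, with 9.24 and 8.30, KIF14 lay at 0.74, past 1.5-fold. Relative to the median gene that probe set lay at 0.65, and another about as bright, with 9.03 and 8.46, lay at 0.29.

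The promoters of these mitotic kinesins are shown because each holds, on one strand or the other, the letters TTTGAA, a core of the CHR motif (cell cycle genes homology region) known from promoters of cell division genes. The letters are frequent, in 15.2% of all promoter windows, and whether any of these matches acts as a CHR was not tested. Windows are from RefSeq, build GRCh38.p14, with 36 of 40 members matched through 47 windows that run from 250 bases before to 50 after a start. Capitals mark the letters TTTGAA or, on the opposite strand, TTCAAA.
KIF4A: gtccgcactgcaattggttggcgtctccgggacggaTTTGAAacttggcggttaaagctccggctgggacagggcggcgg
KIF14: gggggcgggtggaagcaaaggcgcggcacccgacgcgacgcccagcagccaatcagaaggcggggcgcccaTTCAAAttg
KIF15: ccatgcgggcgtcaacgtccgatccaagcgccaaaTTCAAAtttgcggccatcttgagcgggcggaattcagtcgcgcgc
KIF5B: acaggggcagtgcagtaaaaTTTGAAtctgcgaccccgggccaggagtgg
The first 3 stretches run from 70 bases before to 10 after the start, at chrX:70290034-70290113 (plus strand), chr1:200620742-200620821 (minus strand) and chr3:44761724-44761803 (plus strand). The KIF5B stretch is chr10:32056536-32056585 (minus strand).

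The match ended 29 bases before the start in KIF4A and 30 bases before it in KIF15, and lay at bases 2 to 7 of the transcript in KIF14. KIF4A and KIF14 also held CCAAT near it on either strand, 54 and 18 bases before the start, with no overlap between the motifs. The TTTGAA match was not a mark of the direction of change. KIF5B, the lowest kinesin, held it 135 bases before its start, and ARPC3, CAPZA1 and ACTN1 held it 213, 193 and 189 bases before. Searched on both strands, TTTGAA occurred in 7 of the 47 member windows (14.9%) and in 15.2% of all 35116 windows. The GC box GGGCGG stood in 83% of the member windows, against 45% of all, and the CCAAT box in 40.4%, against 34.6%. All windows here are those of RefSeq and not only those of the genes of the table, for which motif shares were not computed. Median promoter GC content was 67% for members and 65.3% for all genes of the table, where windows were matched. The CArG box, the serum response factor motif of many actin genes, stood in 3 of the 47 windows, those of ACTN1, MYLK and MYO1E, and in 1.29% of all. These 3 genes did not share a direction, as their values below show, and a match says only that the letters are there.

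The 4 subunits of the minus-end motor and dynactin were split, with 2 below the median gene (DYNC1H1 and DCTN3) and 2 above it. DYNC1H1, the ATP-hydrolysing heavy chain of cytoplasmic dynein, was measured by 84 probe sets, the most of any member. Its mean was 9.80 after knockdown against 10.12 in the control, a difference of -0.60 ± 0.23, or 66.1% of control. The values lay below the median gene at 82 of the 84 probe sets and were lower in deposited values at 75. DYNC1H1 was just inside the 1.5-fold level of 0.58 and left it at -0.57 with quantile normalization and with loess. DYNC1LI1, a light intermediate chain that links dynein to its cargo adaptors, had 8.87 and 8.32 and lay at 0.26 ± 0.39, which is 0.86 above DYNC1H1. Of the dynactin subunits, DCTN2 (dynamitin) had 9.76 and 9.34 and lay at 0.13 ± 0.24, and the shoulder subunit DCTN3 had 8.59 and 8.58 and lay at -0.27 ± 0.34, with 6 of 7 probe sets below. At its brightest probe set DCTN2 turned to -0.14. The family median of -0.072 therefore stands for values from -0.60 to 0.26.

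**Figure D2:**
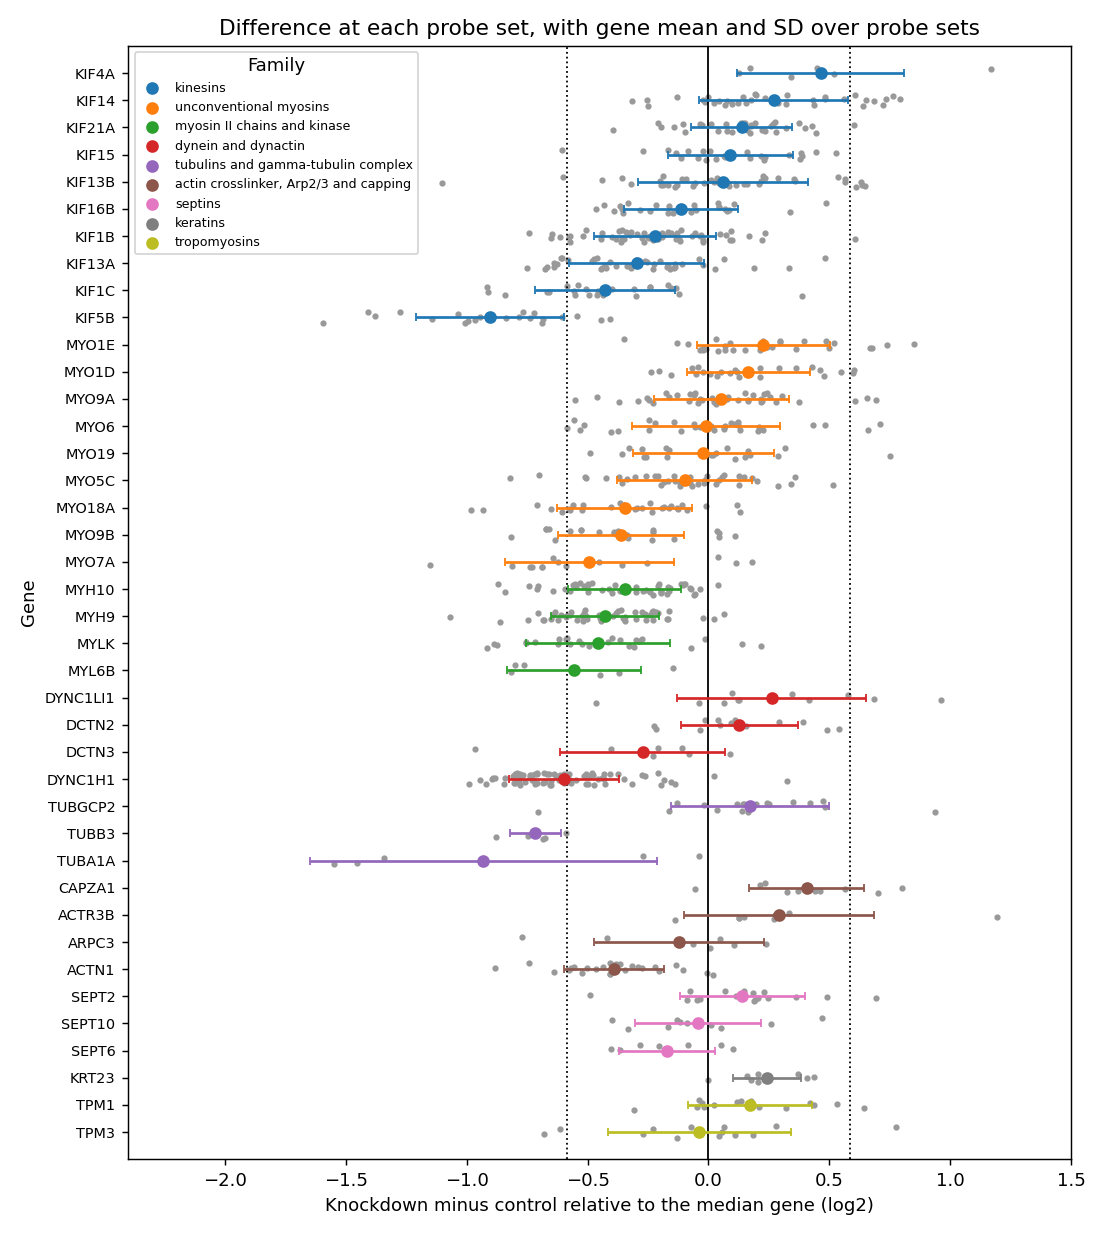
Knockdown minus control relative to the median gene (x axis, log2) for every probe set of the 40 genes (grey points) with the gene mean and SD over probe sets (coloured by family), on 1 array per condition. Dotted lines mark 1.5-fold. KIF5B, TUBB3, MYL6B and TUBA1A have every probe set left of 0, KIF4A has every probe set right of 0, and the probe sets of TUBA1A form 2 separate sets.

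Myosin II, the motor of contractile actin bundles, lay below the median gene in all 4 measured genes of its chains and kinase. Their differences ran from -0.56 to -0.35 with a median of -0.44, and all 4 were lower past the lenient level of 0.32, while none reached 1.5-fold as a gene mean. Over the 4 genes 125 of 130 probe sets were on the lower side, against 22180 of 42575 over all genes. Probe sets of 1 gene are not independent of each other, so this count adds no replicates to the 4 genes. MYH9, the heavy chain of nonmuscle myosin IIA, had 9.97 and 10.12 and lay at -0.43 ± 0.22, with 49 of 51 probe sets below. MYH10, the heavy chain of myosin IIB, had 8.81 and 8.88 and lay at -0.35 ± 0.23, with 46 of 47 below, and at its brightest probe set it lay at -0.79, past 1.5-fold. As gene means the heavy chains differed from each other by 0.081, less than the SD over probe sets of either.

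MYL6B, an essential light chain, was the lowest of the group. It had 9.17 and 9.45 and lay at -0.56 ± 0.28, with all 6 probe sets on the lower side, and stood just outside 1.5-fold at 1.47-fold. It was past 1.5-fold in 4 of 11 alternative settings, at -0.61 as the median over probe sets, -0.71 at its brightest probe set, -0.69 over probe sets at or above the median intensity and -0.59 with the trend on promoter GC content removed. Its 4 brighter probe sets had control values from 10.04 to 10.97 and differences from -0.82 to -0.45, and the 2 dimmer ones lay at -0.37 and -0.15. MYLK, the kinase that activates myosin II through its regulatory light chain, had 8.09 and 8.26 and lay at -0.46 ± 0.30, with 24 of 26 probe sets below. Every probe set lay below the median gene in 4 of the 40 members (TUBA1A, KIF5B, TUBB3 and MYL6B), against 9.04% of all genes with at least 4 probe sets. In deposited values the 4 myosin II genes lay between -0.27 and -0.064, so on that scale they differ little between the arrays.

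The unconventional myosins spread on both sides, with a median of -0.021 and 6 of 9 below the median gene. MYO7A, a myosin of microvilli and sensory hair bundles, was the lowest with 7.60 after knockdown against 7.81 in the control, a difference of -0.49 ± 0.35 and 14 of 17 probe sets below. MYO9B, a class IX myosin, had 8.26 and 8.33 and lay at -0.36 ± 0.26. Its paralog MYO9A had 7.65 and 7.32 and lay 0.41 higher, at 0.053 ± 0.28. MYO18A, a myosin 18 heavy chain that joins myosin II filaments, had 8.04 and 8.10 and lay at -0.35 ± 0.28, with 27 of 29 probe sets below. A further 4 probe sets shared by MYO18A and TIAF1 had a median of -0.34.

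The class I myosins, which tether membranes to actin, were the upper end of this family. MYO1E had 9.49 and 8.98 and lay at 0.23 ± 0.28 with 24 of 31 probe sets above, and MYO1D had 9.31 and 8.86 and lay at 0.16 ± 0.26 with 17 of 24 above. The vesicle motors stayed near the median gene. MYO5C had 8.38 and 8.19 and lay at -0.098 ± 0.28. MYO6, which walks towards the minus end of actin, had 8.57 and 8.30 and lay at -0.011 ± 0.31 with 18 of 36 probe sets on each side. The mitochondrial motor MYO19 had 8.74 and 8.47 and lay at -0.021 ± 0.29. None of these 5 reached the lenient level.

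Actin regulators went in both directions. ACTN1, the nonmuscle alpha-actinin that bundles filaments and anchors them at adhesions, had 10.64 and 10.75 and lay at -0.39 ± 0.21, with 26 of 27 probe sets on the lower side. CAPZA1, the alpha subunit of capping protein, had 10.23 and 9.54 and lay at 0.41 ± 0.24, or 1.32-fold higher, with 10 of 11 above. ACTR3B, a variant of the Arp3 subunit of Arp2/3, had 8.62 and 8.05 and lay at 0.29 ± 0.39, with 7 of 8 above. The 3 probe sets annotated with both symbols ACTR3B and ARP11 were left out of that mean. They ran from -0.13 to 0.29 with a median of -0.065, and whether ARP11 names a separate gene was not checked. ARPC3, a further Arp2/3 subunit, had 9.90 and 9.74 and lay at -0.12 ± 0.35, with 4 of 7 above. Thus 1 gene of these 4 was lower and 1 higher past the lenient level.

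Tropomyosins and septins lay near the median gene, and the keratin somewhat above it. TPM1 had 9.37 and 8.92 and lay at 0.17 ± 0.26, and TPM3 had 10.02 and 9.77 and lay at -0.037 ± 0.38. The septins SEPT2, SEPT10 and SEPT6, GTP-binding proteins of the cleavage furrow and cell cortex, lay at 0.14 ± 0.26, -0.044 ± 0.26 and -0.17 ± 0.20. SEPT2 had 10.41 and 9.99, SEPT10 had 9.29 and 9.05, and SEPT6 had 8.28 and 8.16. KRT23, a type I keratin, had 11.95 and 11.43 and lay at 0.24 ± 0.14, with 8 of 9 probe sets above the median gene and the remaining one at -0.0038. No gene of these families reached the lenient level.

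Members were also divided by signal, at the mean log2 intensity of the median gene of the table, 8.82. Among the 21 members at or above it the median was -0.22 and 9 (42.9%) were lower past the lenient level of 0.32, while all 1398 genes at or above it had a median of 0.015 and 11.9% lower past the lenient level. The 19 members below it had a median of -0.011 and 4 (21.1%) lower past the lenient level, near the 17.2% of all 1397 genes there, whose median was -0.022. At this cut the share of lower genes was thus larger in the dimmer set over all genes, and in the brighter one over the members. With all genes divided by signal into 5 groups of 559, the member medians from dimmest to brightest were -0.15, -0.11, 0.058, 0.042 and -0.26. The members thus did not become steadily lower with signal. All 4 members past 1.5-fold were at or above 8.82, with KIF5B only just there at 8.83. At least 1.5-fold lower were 3.43% of all genes at or above 8.82 and 4.51% of those below it.

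**Figure D3:**
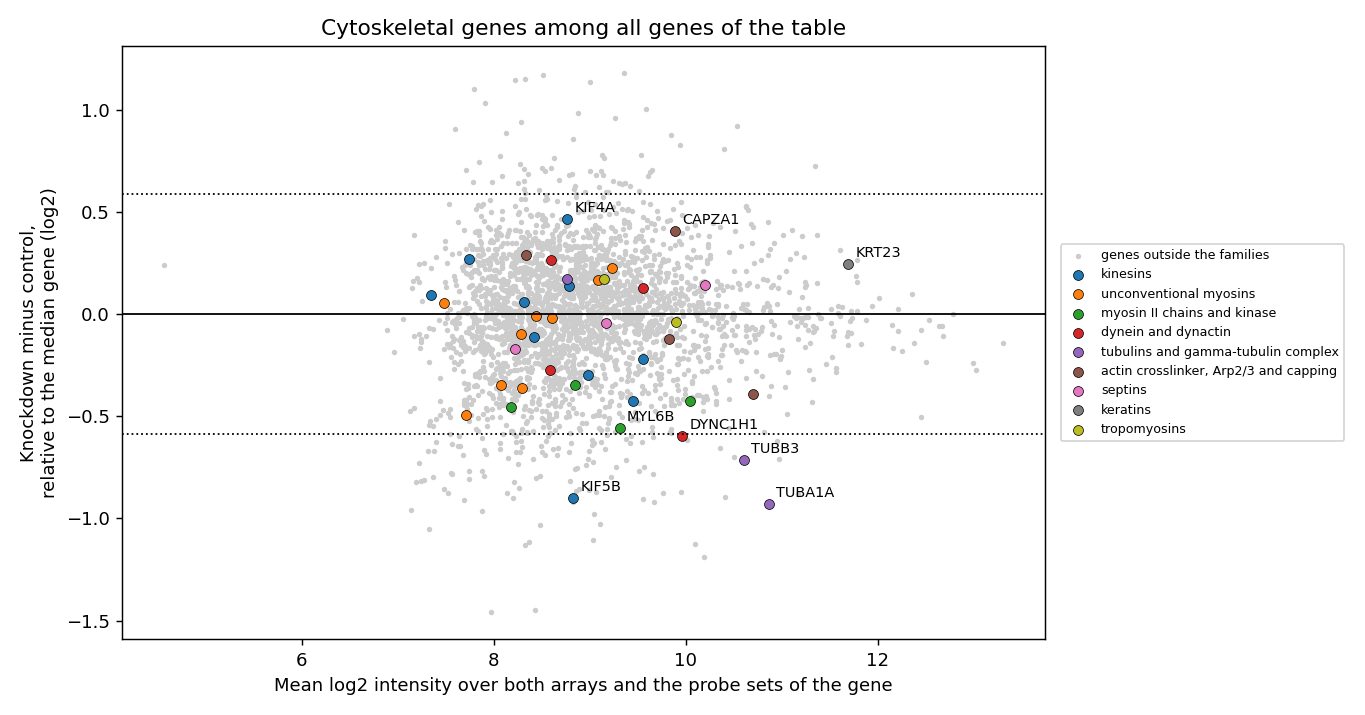
Mean log2 intensity over both arrays and all probe sets of a gene (x axis) against knockdown minus control relative to the median gene (y axis, log2), with the 40 cytoskeletal genes coloured by family over all other genes of the table (grey). Dotted lines mark 1.5-fold. TUBA1A, KIF5B, TUBB3 and DYNC1H1 lie below the lower line and no coloured point lies above the upper one.

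Other cytoskeletal genes, taken from 6 lists of 171 symbols that the prefixes do not cover, were read in the same way. In the table were 43 of them, with a median of -0.088, 28 below the median gene, 2 at least 1.5-fold lower and none at least 1.5-fold higher, against the same 3.97% and 2.25% of all genes. The crosslinkers and adhesion linkers were the lowest list with more than 1 gene, with a median of -0.39 over 9 and 7 of 9 below. PXN (paxillin), an adaptor of focal adhesions, had 8.31 and 8.70 and was lower at all 16 probe sets (-0.67 ± 0.27). UTRN (utrophin) lay at -0.48 ± 0.32 with 68 of 73 below, the adducin ADD1 at -0.44 ± 0.22 with all 16 below, zyxin (ZYX) at -0.42 ± 0.24, and the spectraplakin MACF1 at -0.39 ± 0.31 with 95 of 106 below. The members of the band 4.1 family were on the other side, EPB41L2 at 0.44 ± 0.38 and EPB41 at 0.25 ± 0.28.

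Microtubule-associated proteins and tubulin enzymes lay below the median gene in 8 of 9, with a median of -0.12. MAP1B, a microtubule stabiliser, had 9.24 and 9.59 and lay at -0.63 ± 0.26, and TTL, the ligase that restores the terminal tyrosine of alpha-tubulin, was lower at all 10 probe sets (-0.45 ± 0.32). The midzone protein PRC1, a binding partner of KIF4A, lay at -0.044 ± 0.20. Among 6 motor adaptors and light chains the median was -0.034, with the dynein adaptor HOOK1 highest at 0.51 ± 0.31 and all 18 probe sets above. Actin nucleation and turnover genes had a median of -0.041 over 11, with the formin DAAM1 at 0.46 ± 0.32 and the microvillar bundler VIL1 (villin) at -0.40 ± 0.25, lower at all 19. The 7 myosin regulators had a median of 0.026. Among them the myosin phosphatase subunit PPP1R12A lay at 0.38 ± 0.21, with 23 of 24 probe sets above, and the kinases ROCK1 and ROCK2 lay at 0.22 ± 0.29 and -0.074 ± 0.29. LMNB2 was the only gene of the list of other intermediate filaments and junction partners, at -0.29 ± 0.32.

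The main differences held their sign under most other ways of computing them. KIF5B was past 1.5-fold in all 11 alternative settings that set the median gene or a gene trend to 0, from -1.01 to -0.63, and TUBB3 in 9 of 10, from -0.73 to -0.50. TUBA1A was past it in 9 of 10 and DYNC1H1 in 8 of 11. Some of these settings kept the main value of a gene, so the counts overstate how far the calls were tried. Leaving out the tubulins did not alter KIF5B or DYNC1H1. The minimum of probe sets and the restriction to genes at or above the median level moved only the zero point. DYNC1H1 lay at -0.60, -0.60 and -0.61 in these settings. It fell short of 1.5-fold at -0.57 with quantile normalization and with loess, and at -0.41 with values read as log2. Over all genes the difference ran with promoter GC content, with a Spearman correlation of -0.15 across 2375 genes, given as a description. After this trend was removed KIF5B lay at -0.87, DYNC1H1 at -0.59 and KIF4A at 0.43. With the brightest probe set as the value of a gene, 7 members were at least 1.5-fold lower (KIF5B, TUBB3, DYNC1H1, MYL6B, MYH10, MYO9B and MYO18A) and 1 was higher (KIF14), against 7.01% and 5.19% of all genes. As these are cell populations, fewer cells with a transcript and less of it in each cell cannot be told apart.

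**Figure D4:**
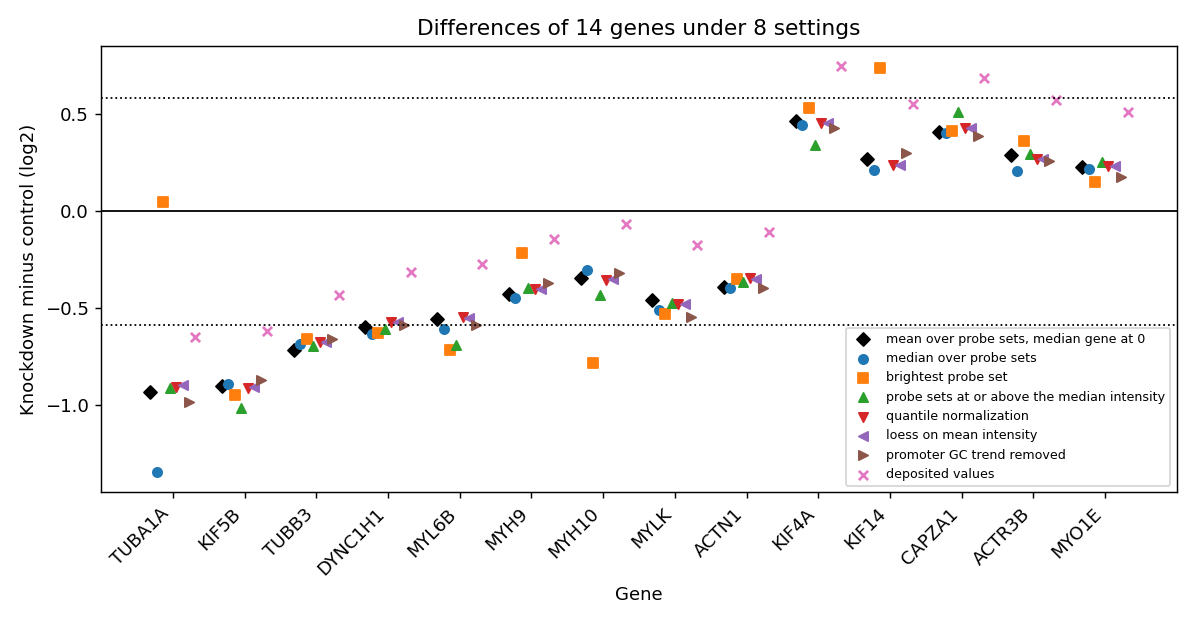
Knockdown minus control (y axis, log2) of 14 of the cytoskeletal genes (x axis) under 8 settings (symbols), each from the same 2 arrays. A gene that has no value in a setting has no symbol there. Dotted lines mark 1.5-fold. KIF5B and TUBB3 are past the lower line in all settings shown that set the median gene to 0, and TUBA1A moves to 0.047 at its brightest probe set.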

How the data were processed

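The authors deposited 1 value per probe set and array, without stating its scale, normalization, summary method or genome build in the sources used here. Read as natural logs, the exponentials of the deposited values under 2000 showed an excess at 1 position within steps of 0.5. The fullest of the bins of such a step held 1154 of 41367 values on the knockdown array, where a bin held 82.7 on average. Most values lay outside that bin. Taken as log2, it held 117 where a bin held 90.4. The deposited values were thus treated as natural log intensities and converted to log2, which is an inference from this excess. Of 45200 probe sets, 42575 had 1 gene symbol in the platform annotation, 1055 had several and 1570 none, and only the first were used. Symbols are as listed, which for septins are older names. A total of 30 probe sets that name a member beside another symbol were left out of gene values.

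For each gene the knockdown minus control difference was averaged over probe sets and set against the median gene. The members and gene lists were chosen with earlier results of these data known. Genes named were those past 1.5-fold, the highest and lowest of each family, the brightest of each and, in the end, all 40 members. The lists' examples were chosen after their values were seen. Alternatives were another zero point, normalization, gene summary, level floor, minimum of 4 probe sets, log base and fold. Removal of trends with promoter GC content or gene length and leaving out the tubulins were added after the data were seen. The number of arrays limits the precision. The computation was checked on simulated data with set folds and independent noise at each probe set. That check cannot show how far arrays of the same condition would differ. Python 3.11.15, pandas 2.3.3, numpy 2.4.6 and statsmodels 0.14.6 were used.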

Additional observations from a re-analysis of the deposited data

How the results depend on the processing

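Values here are log2 differences relative to the median gene, or numbers of members. In deposited values, which lie 0.28 higher throughout, the median over members was 0.21, with 2 members at least 1.5-fold lower and 2 higher, and the family medians were 0.26 for kinesins, 0.26 for unconventional myosins, -0.16 for myosin II, 0.21 for dynein and dynactin, 0.37 for actin regulators, 0.24 for septins and 0.35 for tropomyosins. With probe sets at or above the median intensity only, the median over the 36 members left was -0.16. There 7 members were at least 1.5-fold lower, against 5.58% of all genes, and kinesins lay at -0.23 and unconventional myosins at -0.11. Among genes at or above the median level the median over members was -0.24, and kinesins lay at -0.38, unconventional myosins at 0.18 and actin regulators at -0.14, each over fewer genes. With brightest probe sets 7 members were lower and 1 higher, unconventional myosins lay at -0.27 and myosin II at -0.62, and TUBA1A turned to 0.047, as did the median of its family of 3. With the promoter GC trend removed the median over members was -0.13. Read as log2 values, the data gave 2 lower members, against 1.14% of all genes, and -0.31 for myosin II. At 2-fold 0 members were lower, and at a log2 difference of 0.32 13 were lower and 2 higher, with the shares of all genes given above. Without TUBA1A and TUBB3 2 were at least 1.5-fold lower, against 3.90% of all genes. Quantile normalization and loess left 3 lower members, without DYNC1H1, against 4.29% of all genes in each. The cause of these shifts was not tested beyond the construction of each alternative. The alternative without members that are no cytoskeletal protein was not run because 0 members were of that kind. No paired analysis was possible because each condition had 1 array, which also leaves no replicate to leave out.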
